A study of Homo sapiens with 12 samples.

Results

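A set of 8 genes was followed that carry or accompany the recurrent chromosomal translocations of multiple myeloma (MM): FGFR3, NSD2, MAF, ITGB7, CCND1, CCND2, CCND3 and CCR1. They were chosen by symbol, make up 8 of the 59276 features of the deposited table, and all 8 were among the 11939 features tested. Total RNA was sequenced from cells labelled MM1S, a human MM line, in 12 libraries of 4 groups with 3 libraries each. The groups were untreated cells at day 0 and cells exposed for 2, 3 or 5 days to NGI-1 at 10 μM. No untreated group was sampled at day 2, 3 or 5, so exposure to NGI-1 and days in culture cannot be told apart. NGI-1 blocks oligosaccharyltransferase, the enzyme complex that attaches N-glycans to proteins in the endoplasmic reticulum. The day 0 libraries carry NGI-1 in their treatment label as well, but were taken as untreated because the study describes them so. No genetic change was made in any group, and all libraries come from 1 line. The study states in general that its data are means of biological replicates, but not whether the 3 libraries of a group were separate cultures. The p-values therefore measure only the spread between these samples.

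In MM, translocations into the immunoglobulin heavy-chain locus place an oncogene next to strong plasma cell enhancers. The t(4;14) translocation joins this locus to 4p16.3, where it can raise NSD2, which encodes a histone H3 lysine 36 methyltransferase, and FGFR3, which encodes a receptor tyrosine kinase. The t(14;16) translocation raises MAF, a transcription factor that is known to drive CCND2, ITGB7 and CCR1, and t(11;14) raises CCND1. Nearly all MM tumours express at least 1 D-type cyclin, the partners of CDK4 and CDK6 that start the phosphorylation of RB1 before S phase. RNA levels do not show a translocation, and none was measured here.

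The cells were plasma cells by their markers. All 9 plasma cell markers (SDC1, TNFRSF17, IRF4, PRDM1, XBP1, CD38, SLAMF7, MZB1 and JCHAIN) were above the filter, with a summed level of 11997 to 14140 TPM (each transcript's length-normalized share of its library) in untreated libraries and 19036 to 28391 in treated ones. JCHAIN made up most of this sum (9697 TPM in untreated cells, 17339 at day 5). By day 3, 3 of the 9 markers had fallen and 3 had risen, beside 61.5% and 7.59% of all tested features. By day 5 these numbers were 5 and 2, beside 69.8% and 7.73%, with XBP1 (-2.09) and SDC1 (-1.79) lower and TNFRSF17 (1.85) higher. After rescaling the libraries to a common median, 1 was lower and 6 were higher at day 3, beside 24.2% and 23.9%. At day 5 the rescaled numbers were 2 and 4, beside 26.9% and 27.5%. The 4 B cell markers and the 4 myeloid markers all stayed under the filter, with sums of at most 0.318 and 0.745 TPM in any library. Of the T cell markers 1 of 4 was above it, CD3E at 3.00 TPM in untreated cells, and of the stromal and epithelial markers 2 of 5, KRT8 and KRT18. The T cell sum ranged from 2.75 to 7.26 TPM and the stromal and epithelial sum from 6.46 to 26.6 TPM over the 12 libraries. CD3E rose at days 2 and 3 (0.86 and 0.75 on the log2 scale), and its part in the results was not tested. Further measurements went against the label. MM1S is known as a line that secretes a lambda light chain and carries t(14;16), yet the kappa constant gene IGKC stood at 25260 ± 1610 TPM (SD, n = 3) in untreated cells and the lambda constant gene IGLC1 at 539.8 ± 28.6, so that IGKC was 44.8 to 48.8 times higher in the untreated libraries and 12.03 to 48.8 times over all 12, with IGKC at 8480 TPM at day 5. MAF was at 8.89 TPM, below the median of 11.6 TPM over all tested features. FGFR3 and NSD2, the genes of t(4;14), were above this median at 284 and 87.0 TPM. These light-chain genes were looked up after other values had been seen. The cells are therefore called by their label only, and whether the line is MM1S was not tested.

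In untreated cells the 8 genes ranged from ITGB7 at 974 TPM to MAF at 8.89 TPM. ITGB7 ranked 148 and FGFR3 408 among the 11939 features, NSD2 (87.0 TPM) ranked 1309, CCND1 (42.8 TPM) 2446, CCR1 (37.1 TPM) 2755, CCND3 (17.2 TPM) 4804, CCND2 (10.6 TPM) 6178 and MAF 6739. The libraries of neighbours in this order did not overlap, except those of CCND1 and CCR1. After NGI-1 the upper 3 places were unchanged on each day (ITGB7, FGFR3, NSD2), while CCR1 and CCND1 overlapped on every day, as did neighbours among CCND2, CCND3 and MAF. Each gene stayed at 1.86 TPM or more in every library.

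Changes are given on the log2(TPM + 1) scale with the standard error (SE) and Benjamini-Hochberg adjusted p of limma, and calls needed an adjusted p below 0.05 together with a change larger than 0.5. TPM is a share of a library, so a fall means a smaller share of the RNA, and in bulk RNA fewer cells of a type and less RNA per cell cannot be told apart. The median tested feature itself moved by -0.18, -0.73 and -0.99 at days 2, 3 and 5 against untreated. The changes of the 8 genes against untreated are therefore given also after rescaling the libraries to a common median. For other genes, distances and TPM levels a rescaled value is given only where stated. At day 2, 1 of the 8 genes fell (CCND3) and 1 rose (ITGB7), beside 23.2% and 8.04% of all tested features. At day 3, 6 fell and 0 rose by limma, beside 61.5% and 7.59%, and at day 5 all 8 fell, beside 69.8% lower and 7.73% higher. The median change of the 8 genes was -0.24, -1.08 and -1.75. After rescaling, 1 fell and 2 rose at day 2 (background 11.4% and 12.9%), 3 fell and 1 rose at day 3 (24.2% and 23.9%), and 4 fell and 0 rose at day 5 (26.9% and 27.5%). The 4 that fell at day 5 under both scalings were CCND1, CCND2, CCND3 and CCR1. As deposited, none of the 8 genes had a positive change at day 3 or 5, so that the counts of 0 hold at an unadjusted p under 0.05 too, while after rescaling FGFR3 and NSD2 were above untreated at day 5 with adjusted p = 2.74e-05 and 0.000194 but under the size threshold.

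**Figure D1:**
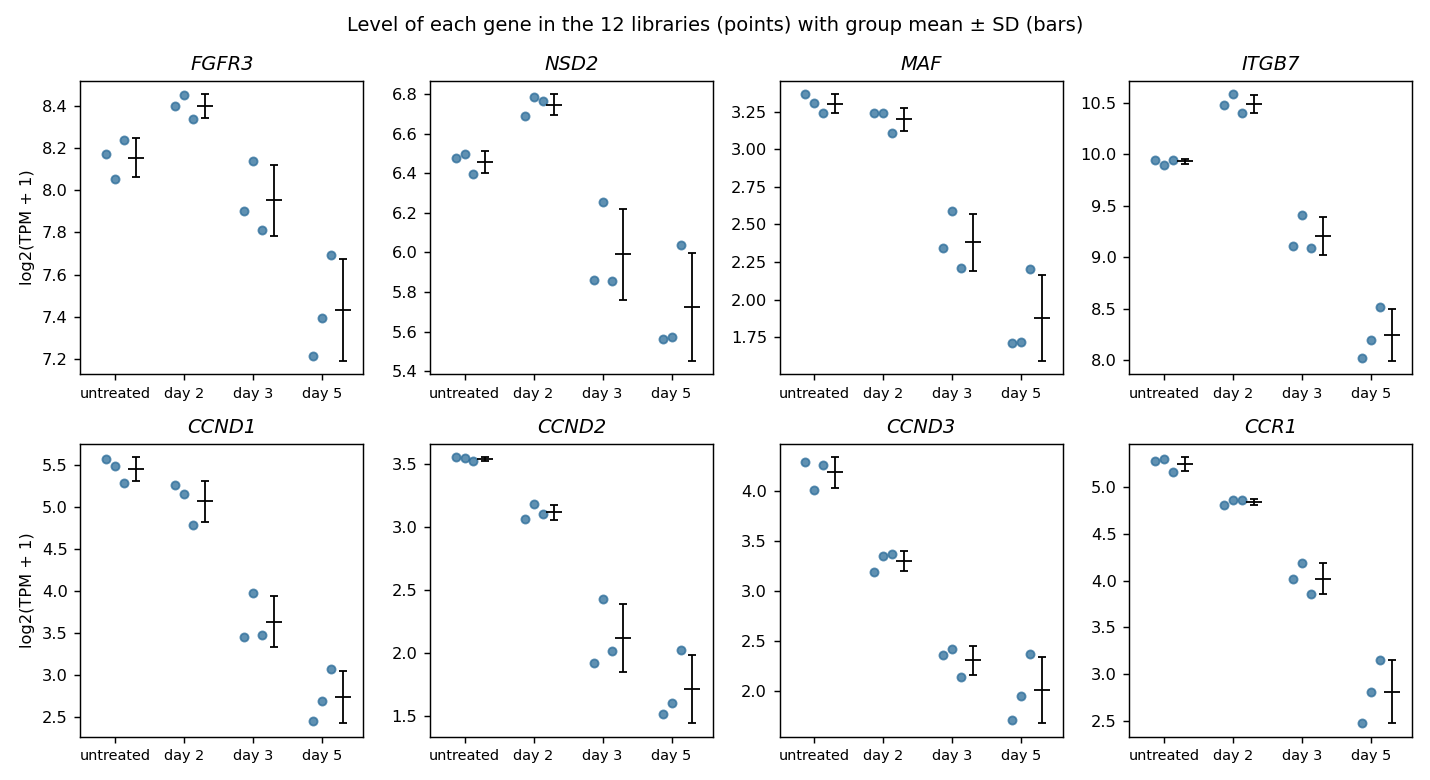
Level of each of the 8 genes, log2(TPM + 1), in the 3 libraries of each group (blue points, replicates 1 to 3 from left to right), with the group mean ± SD in black; each panel has its own vertical scale. ITGB7 peaks at day 2, whereas the group means of the D-type cyclins and CCR1 go down at each time. The day 3 and day 5 libraries of CCND2 and of CCND3 overlap. In the day 3 and day 5 groups 1 library stands above the others in all panels, as it does by the median used for rescaling.

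**Figure D2:**
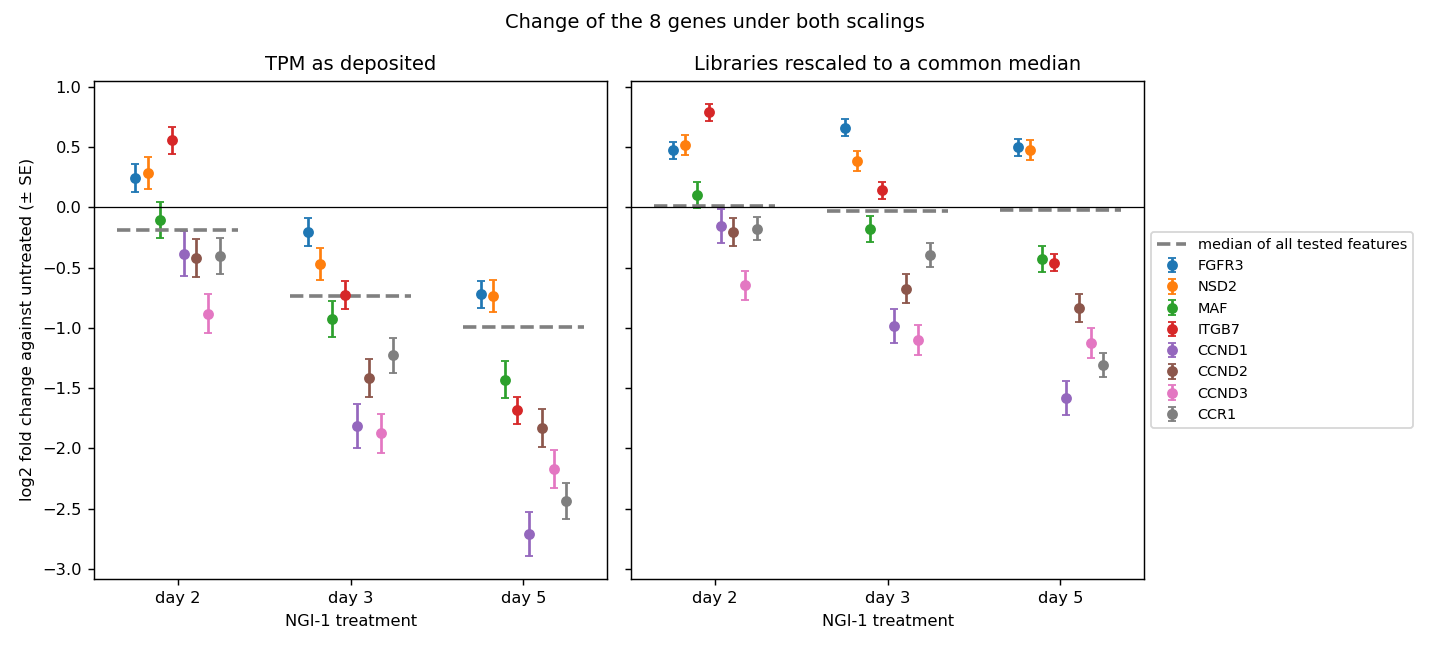
Log2 fold change against untreated (± SE, limma, 3 libraries a group) of the 8 genes at days 2, 3 and 5, for TPM as deposited (left) and after rescaling (right), with the median of all tested features as a dashed line. FGFR3 and NSD2 lie above the dashed line on every day in both panels, and the D-type cyclins and CCR1 lie below it on every day in both.

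The 2 genes of 4p16.3 lay above the median feature on each day. FGFR3, on chr4:1793293-1808872 (GRCh38, plus strand), was at 287, 265 and 301 TPM in the untreated libraries, 337, 349.7 and 323 at day 2, 238, 281 and 224 at day 3, then 147, 167 and 206 at day 5. All day 2 libraries were above the untreated ones, day 3 overlapped with them, and all day 5 libraries were below. The change was 0.24 ± 0.11 at day 2 (adjusted p = 0.0985), -0.20 ± 0.11 at day 3 (adjusted p = 0.119) and -0.72 ± 0.11 at day 5 (adjusted p = 4.33e-05). After rescaling the same changes were 0.48, 0.66 and 0.50, with each of the 9 treated libraries above each untreated one, and only that at day 3 was called, so the direction at day 5 turns with the scaling.

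NSD2, 62552 bases further along on chr4:1871424-1982207 (plus strand), was also highest at day 2. It was at 88.2, 89.5 and 83.3 TPM in untreated libraries, 102, 109 and 108 at day 2, 57.1, 75.5 and 56.8 at day 3, then 46.2, 46.6 and 64.7 at day 5. Day 2 lay above the untreated libraries, and days 3 and 5 lay below them. The change was 0.29 ± 0.13 at day 2 (adjusted p = 0.0908), -0.47 ± 0.13 at day 3 (adjusted p = 0.00527, under the size threshold) and -0.73 ± 0.13 at day 5 (adjusted p = 0.00014). Without day 3 replicate 2 the change at day 3 was -0.60 and NSD2 was called. The rescaled changes were 0.52, 0.39 and 0.47, with every treated library above the untreated ones. FGFR3 and NSD2 kept nearly the same distance from each other, at 1.70, 1.65, 1.96 and 1.71 log2 units in the 4 groups.

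Genes beside FGFR3 and NSD2 were mostly lower at day 5, as were most features. Of 8 neighbours on 4p16.3, 6 were tested, and at day 5, 5 of them fell and 1 rose (median change -1.81, against -0.99 over all tested features), beside 69.8% lower and 7.73% higher among all features. These counts became 4 and 1 with rescaled libraries, beside 26.9% and 27.5%. TACC3, a spindle protein gene just upstream of FGFR3, went from 50.9 ± 0.27 to 0.543 ± 0.20 TPM (log2 change -5.08), and SLBP, which encodes the histone mRNA stem-loop binding protein, changed by -2.57. LETM1, which lies between FGFR3 and NSD2, changed by -1.83, and NELFA, adjacent to NSD2, by -1.79, while C4orf48 rose by 1.26. Within each library NSD2 stood above the mean of the 6 neighbours by 2.64 ± 0.13 log2 units in untreated cells, 3.38 ± 0.093 at day 2, 3.83 ± 0.15 at day 3 and 3.65 ± 0.073 at day 5. FGFR3 stood above them by 4.33, 5.03, 5.79 and 5.36. The added 1 TPM makes these distances depend on scaling for low genes, and after rescaling that of NSD2 was 2.56, 3.34, 3.90 and 3.81, an alternative chosen after seeing the data. Against LETM1 and NELFA alone the distance of NSD2 was 3.03, 3.91, 4.15 and 4.10. TACC3 and SLBP take part in cell division and in histone mRNA processing at S phase, and their part in these distances was not tested apart from this last comparison.

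FGFR3 was nearly the only FGF receptor, with 98.98% of the summed TPM of FGFR1 to FGFR4 in untreated cells and 99.8% at day 5. Of the 15 tested genes of FGF receptor signalling, 4 fell at day 2, 13 at day 3 and 13 at day 5, beside 23.2%, 61.5% and 69.8% of all tested features. ETV4, a transcription factor gene induced by the pathway, went from 19.3 to 2.01 TPM (-2.76 ± 0.13 at day 5), and DUSP6, the ERK phosphatase gene, from 42.6 to 9.55 TPM (-2.05 ± 0.10). SPRY4, a Sprouty inhibitor gene, changed by -1.84 and the adaptor gene SHC1 by -1.74, whereas FRS2, the docking protein of FGF receptors, changed by -0.46 and SPRY2, another Sprouty gene, by -0.25 (neither called). The Sprouty gene SPRY1 changed by -0.93 and the related inhibitor genes SPRED1 and SPRED2 by -1.09 and -1.13. After rescaling, 6 of 15 were lower and 1 higher at day 5 (26.9% and 27.5% of all features), ETV4 at -1.75 and DUSP6 at -0.89 among the lower.

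NSD2 held a growing share of its family. It took 64.6 ± 0.78% of the summed TPM of NSD1, NSD2 and NSD3 in untreated cells, and (SD, n = 3) 73.7 ± 1.2%, 77.3 ± 0.48% and 79.0 ± 0.85% after 2, 3 and 5 days, while NSD1 went from 11.7% to 4.02%. This share does not depend on library scaling. Among 7 other enzymes that write or remove H3 lysine 36 methylation, 1 fell at day 2 and 7 of 7 fell at days 3 and 5, from SETD2 (-0.77), which trimethylates this residue, to NSD1 (-2.20), beside 61.5% and 69.8% of all features lower at these days. After rescaling 3 of 7 were lower at day 5, beside 26.9% of all features.

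MAF, on chr16:79585843-79600714 (minus strand), started low and fell. Its values were 9.31, 8.89 and 8.47 TPM in untreated libraries, 8.49, 8.48 and 7.65 at day 2, 4.08, 5.01 and 3.62 at day 3, then 2.27, 2.28 and 3.61 at day 5. Day 2 overlapped with the untreated libraries, and days 3 and 5 lay below them. The change was -0.10 ± 0.15 at day 2 (adjusted p = 0.601), -0.92 ± 0.15 at day 3 (adjusted p = 6.79e-05) and -1.43 ± 0.15 at day 5 (adjusted p = 7.24e-07). After rescaling the changes were 0.10, -0.18 and -0.43, none of them called, with days 3 and 5 still below the untreated libraries.

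A long noncoding RNA next to MAF moved the other way. LINC01229, on chr16:79676108-79807922 (plus strand) and 75394 bases upstream of MAF, was at 4.40, 4.16 and 3.53 TPM in untreated libraries, 10.3, 11.2 and 10.4 at day 2, 14.1, 12.6 and 13.7 at day 3, then 16.9, 14.0 and 15.6 at day 5. No treated library overlapped with the untreated ones. The change was 1.21 ± 0.11, 1.53 ± 0.11 and 1.71 ± 0.11 at days 2, 3 and 5 (adjusted p = 1.9e-06, 4.3e-08 and 6.9e-09 by limma), and 1.34, 2.24 and 2.77 after rescaling. It was looked up after the values of MAF had been seen. MAFTRR, annotated on the opposite strand inside it, was at most 0.283 TPM in any library. WWOX, the gene in which most t(14;16) breakpoints lie, was at 2.58, 4.48, 2.67 and 1.60 TPM, with a change of 0.61 ± 0.22 at day 2 (called) and -0.43 ± 0.22 at day 5 (not called). With rescaled libraries, the day 5 values of WWOX were all above the untreated ones.

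Of 8 genes of the MAF signature of MM, 5 were tested, and at day 5, 3 fell and 1 rose, beside 69.8% lower and 7.73% higher among all features. DEPTOR, an mTOR-binding protein gene, went from 108 to 44.9 TPM (-1.26 ± 0.10), the kinase gene NUAK1 from 2.09 to 0.114 TPM (-1.47 ± 0.12) and RASGRP1 from 1.99 to 0.298 TPM (-1.20 ± 0.12). RND3 rose from 2.23 to 9.69 TPM (1.73 ± 0.13), and ARID5A was at 26.3 and 23.8 TPM (not called). After rescaling, NUAK1 and RASGRP1 remained lower, RND3 and ARID5A were higher, and DEPTOR stood at -0.05.

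The promoters of MAF and of its reported targets ITGB7 and CCR1 are shown, and 1 of CCND3 because it held a match. MAF, ITGB7 and CCR1 fell at day 5 as deposited, as did all 8 genes. After rescaling only CCR1 among these 3 was called lower. The 250 bases before the start site (RefSeq, GRCh38.p14, 5′ to 3′ on the strand of the gene) were searched on both strands for TGCTGA, the core of the MAF half-site TGCTGAC, and matches to the core are in capitals. Entries were found for 6 of the 8 genes, with 3 for CCND3. CCND1 and CCND2 had no entry.
MAF, chr16:79600738-79600987, minus strand: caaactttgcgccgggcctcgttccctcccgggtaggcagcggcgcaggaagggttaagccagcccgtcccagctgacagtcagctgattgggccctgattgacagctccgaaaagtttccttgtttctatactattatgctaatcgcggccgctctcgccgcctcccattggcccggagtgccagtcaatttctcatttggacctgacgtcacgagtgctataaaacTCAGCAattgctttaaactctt
CCND3, chr6:41939206-41939455, minus strand: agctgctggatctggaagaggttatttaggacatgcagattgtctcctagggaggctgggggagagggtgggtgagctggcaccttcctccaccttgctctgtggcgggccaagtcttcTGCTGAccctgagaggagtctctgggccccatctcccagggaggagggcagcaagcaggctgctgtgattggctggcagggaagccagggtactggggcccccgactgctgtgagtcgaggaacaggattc
ITGB7, chr12:53207252-53207501, minus strand: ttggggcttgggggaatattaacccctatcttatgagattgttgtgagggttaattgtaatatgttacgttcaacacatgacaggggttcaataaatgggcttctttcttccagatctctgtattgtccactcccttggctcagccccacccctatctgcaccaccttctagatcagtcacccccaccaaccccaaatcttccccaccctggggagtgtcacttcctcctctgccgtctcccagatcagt
CCR1, chr3:46208314-46208563, minus strand: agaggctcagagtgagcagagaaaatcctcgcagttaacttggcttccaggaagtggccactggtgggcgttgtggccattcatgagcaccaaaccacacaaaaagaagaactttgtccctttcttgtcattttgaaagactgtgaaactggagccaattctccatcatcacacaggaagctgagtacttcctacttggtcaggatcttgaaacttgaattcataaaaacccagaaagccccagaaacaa
The core was found once in MAF, as its reverse complement TCAGCA 22 bases before the start, and once in 1 of the 3 CCND3 promoters, 131 bases before the start, where it was part of a full half-site. It was not in the other 2 CCND3 promoters or in those of ITGB7, CCR1, FGFR3 and NSD2. Over all 35116 promoters, 14.0% held the core and 3.43% the half-site, and a match is not a binding site. The FGFR3 and NSD2 promoters were alike in base composition, with 86.8% and 86.0% G and C, against 45.2% in CCR1 and 49.6% in ITGB7.

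ITGB7, on chr12:53191318-53207307 (minus strand), encodes the integrin beta 7 subunit, which pairs with integrin alpha 4 or alpha E in adhesion of lymphocytes and plasma cells. It was at 986, 952 and 983 TPM in untreated libraries, 1424, 1529 and 1349.7 at day 2, 549.6, 681 and 545 at day 3, then 259, 292 and 366 at day 5. All day 2 libraries were above all others, and the day 3 and day 5 libraries were below the untreated ones. ITGB7 rose at day 2 by 0.56 ± 0.11 (adjusted p = 0.00152) and changed by -0.73 ± 0.11 at day 3 (adjusted p = 5.33e-05) and -1.68 ± 0.11 at day 5 (adjusted p = 9.82e-09). The rise placed it at percentile 92.5 of all changes at day 2, and its fall from day 3 to day 5 at percentile 0.678. After rescaling the changes were 0.79 (called), 0.14 and -0.46, so the rise at day 2 held under both scalings and the sign at day 3 did not.

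An alpha subunit that pairs with ITGB7 took a similar path at a lower level as deposited, but not after rescaling. ITGA4 was at 259 ± 7.2 TPM in untreated cells, 344 ± 8.7 at day 2, 237 ± 18 at day 3 and 146 ± 18 at day 5, a change of 0.41 ± 0.09, -0.13 ± 0.09 and -0.83 ± 0.09, of which the last was called. After rescaling ITGA4 was higher at days 2 and 3 (0.64 and 0.73). Its rescaled day 5 libraries were all above the untreated ones, whereas those of ITGB7 were all below. ITGAE changed by -0.37, -0.61 (called) and -0.47. FERMT3, the kindlin that activates integrins in blood cells, went from 91.7 to 18.0 TPM (-2.30 ± 0.12 at day 5) and TLN1, encoding talin, from 18.5 to 6.28 TPM (-1.45 ± 0.25). Of the 4 tested partners 3 fell at day 5, beside 69.8% of all features. After rescaling FERMT3 remained lower and ITGAE was higher, beside 26.9% lower and 27.5% higher among all features. The ligand genes MADCAM1, VCAM1, FN1 and CDH1 did not pass the filter.

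The 3 D-type cyclins were lower at days 3 and 5 under both scalings. CCND1, on chr11:69641087-69654474 (plus strand), was at 46.5, 44.02 and 38.1 TPM in untreated libraries, 37.3, 34.7 and 26.6 at day 2, 9.98, 14.8 and 10.1 at day 3, then 4.47, 5.47 and 7.41 at day 5. Each treated library was below each untreated one, though day 2 overlapped after rescaling. The change was -0.38 ± 0.18 at day 2 (adjusted p = 0.105), -1.81 ± 0.18 at day 3 (adjusted p = 8.67e-07) and -2.71 ± 0.18 at day 5 (adjusted p = 9.35e-09), and -0.15, -0.98 and -1.58 after rescaling. The change at day 5 was at percentile 3.31 of all tested features.

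CCND3, on chr6:41934933-42050357 (minus strand), fell earliest. Its values were 18.5, 15.1 and 18.0 TPM in untreated libraries, 8.11, 9.198 and 9.32 at day 2, 4.14, 4.35 and 3.43 at day 3, then 2.27, 2.87 and 4.16 at day 5. No treated library reached the untreated range. The change was -0.88 ± 0.16 at day 2 (adjusted p = 0.000617), -1.87 ± 0.16 at day 3 (adjusted p = 1.81e-07) and -2.17 ± 0.16 at day 5 (adjusted p = 2.12e-08). After rescaling it was -0.65, -1.10 and -1.13, called on each day.

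CCND2, on chr12:4273772-4305350 (plus strand), was at 10.7, 10.7 and 10.5 TPM in untreated libraries, 7.38, 8.08 and 7.61 at day 2, 2.79, 4.39 and 3.05 at day 3, then 1.86, 2.04 and 3.07 at day 5. All treated libraries were below the untreated ones, and days 3 and 5 overlapped. The change was -0.42 ± 0.16 at day 2 (adjusted p = 0.0426, under the size threshold), -1.42 ± 0.16 at day 3 (adjusted p = 2.04e-06) and -1.83 ± 0.16 at day 5 (adjusted p = 1.01e-07), and -0.20, -0.67 and -0.83 after rescaling. CCND2 shares its strand and some bases with the protein-coding gene AC008012.1 (at most 3.67 TPM), CCND1 overlaps LTO1 on the other strand (at most 7.71 TPM) and ITGB7 overlaps ZNF740 on the other strand (at most 11.1 TPM). Whether reads were assigned by strand is not given in the sources used here, so the low values of CCND1 and CCND2 at day 5 are uncertain by up to these levels.

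As deposited, the sum of the D-type cyclins fell, and CCND1 stayed its largest part in every library. Their summed level was 66.6 to 75.7 TPM in untreated libraries, 43.5 to 52.7 at day 2, 16.6 to 23.6 at day 3 and 8.61 to 14.6 at day 5. CCND1 made up 60.5 ± 3.1% of it in untreated cells, and (SD, n = 3) 66.2 ± 4.8%, 61.0 ± 1.9% and 51.8 ± 1.0% after 2, 3 and 5 days. CCND2 went from 15.1 ± 0.82% to 20.7 ± 1.0% and CCND3 from 24.4 ± 2.7% to 27.5 ± 1.0% at day 5. At day 5 the CCND1 share was below, and the CCND2 share above, every untreated library. By exact two-sided permutation tests, where 3 against 3 libraries cannot go below p = 0.1, none of the 12 comparisons of shares passed (smallest adjusted p = 0.24), but the 9 comparisons of 3 against 3 could not have passed. Comparing all 9 treated with the untreated libraries gave p = 0.836 for CCND1, 0.0727 for CCND2 and 0.5 for CCND3 (exact permutation). The adjusted p were 0.912, 0.24 and 0.667. The smallest possible p here is 0.0045, which could not pass for 1 share alone after adjustment over 12 tests. Pooling also joins opposite differences from untreated at days 2 and 5 for CCND1 (5.64 and -8.76 points) and CCND3 (-6.23 and 3.10). Those of CCND2 were both positive (0.59 and 5.66). These tests therefore do not decide whether the shares changed.

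**Figure D3:**
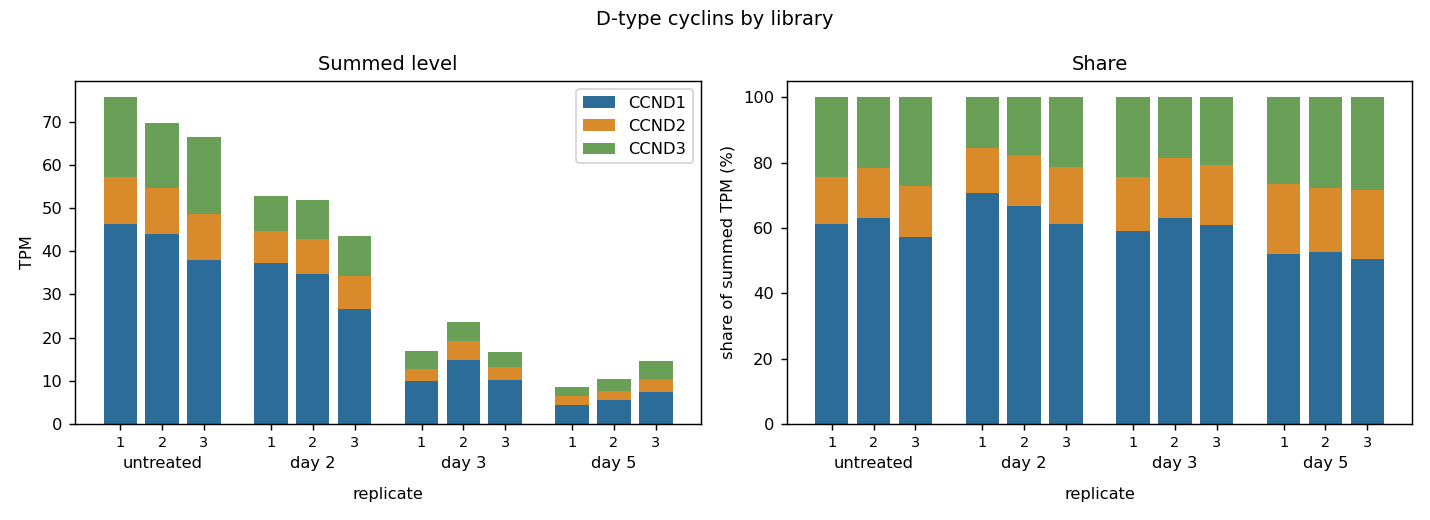
TPM of CCND1, CCND2 and CCND3 stacked for each of the 12 libraries (left) and their shares of the sum in percent (right), with the 3 replicates of untreated, day 2, day 3 and day 5 side by side. The sum drops from 66.6 to 75.7 TPM in untreated libraries to 8.61 to 14.6 TPM at day 5, while CCND1 stays the largest part in every library.

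Kinases and inhibitors of the D-type cyclins did not all move with them. Of 7 tested genes 5 fell at day 5, close to the 69.8% of all features. CDK4 went from 158 to 50.6 TPM (-1.63 ± 0.10) and CDK6 from 44.7 to 8.66 TPM (-2.26 ± 0.21). CDKN2C, encoding the INK4 inhibitor p18, was the most abundant of the list at 374 ± 5.1 TPM in untreated cells and 301 ± 6.5 at day 5 (-0.31 ± 0.07, not called), and CDKN1B, encoding p27, was at 25.3 and 32.1 TPM (0.31 ± 0.13, not called). CDKN1A, encoding p21, went from 36.3 to 11.3 TPM (-1.62 ± 0.13). After rescaling CDKN2C (0.91) and CDKN1B were called higher and CDK6 (-1.11) lower at day 5. Among 10 tested targets and turnover factors 9 fell and 1 rose at day 5, beside 69.8% and 7.73% of all features, and 5 were lower and 1 higher after rescaling, beside 26.9% and 27.5%. E2F1 went from 21.6 to 0.738 TPM (-3.71 ± 0.12), CCNE2 from 17.6 to 0.788 (-3.36 ± 0.14), CCNE1 from 13.3 to 1.03 (-2.85 ± 0.17) and RB1 from 17.1 to 4.46 (-1.74 ± 0.15). FBXO4, an F-box gene reported to act in cyclin D1 turnover, rose from 3.21 to 6.86 TPM (0.90 ± 0.15) and was higher after rescaling too (1.89).

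CCR1, on chr3:46201709-46208396 (minus strand), encodes a chemokine receptor for CCL3 and CCL5. It was at 37.9, 38.4 and 34.9 TPM in untreated libraries, 27.0, 28.1 and 28.2 at day 2, 15.2, 17.2 and 13.5 at day 3, then 4.55, 6.03 and 7.90 at day 5. None of the 4 groups overlapped with another. The change was -0.40 ± 0.15 at day 2 (adjusted p = 0.0384, under the size threshold), -1.23 ± 0.15 at day 3 (adjusted p = 4.12e-06) and -2.44 ± 0.15 at day 5 (adjusted p = 3.06e-09). After rescaling it was -0.18, -0.40 and -1.31, and only the last was called.

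CCL3, a ligand of CCR1, was higher on each day. CCL3 was at 56.7, 48.1 and 57.5 TPM in untreated libraries, 443, 479 and 409.8 at day 2, 308, 325 and 303 at day 3, then 355, 418 and 478 at day 5. Every treated library was above every untreated one, and the change was 3.01 ± 0.11, 2.51 ± 0.11 and 2.92 ± 0.11 (adjusted p = 2.3e-11 at day 5 by limma). CCL3L3, a near-identical copy that can share reads with CCL3 and is therefore uncertain, went from 2.52 to 30.4 TPM at day 5 (3.18 ± 0.18). CCL5 went from 0.971 to 2.78 TPM at day 2 (0.95 ± 0.15, called) and was at 1.42 TPM at day 5 (0.30 ± 0.15, not called). With rescaled libraries all 3 tested ligand genes were called higher at day 5, CCL5 by 0.96, beside 27.5% of all features. The other 5 ligand genes of the list did not pass the filter. Of the related receptors CXCR4, the receptor for CXCL12, fell by 1.99 on the log2 scale at day 5 and CCR10 by 0.62, of which only CXCR4 was lower after rescaling (-0.92).

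**Figure D4:**
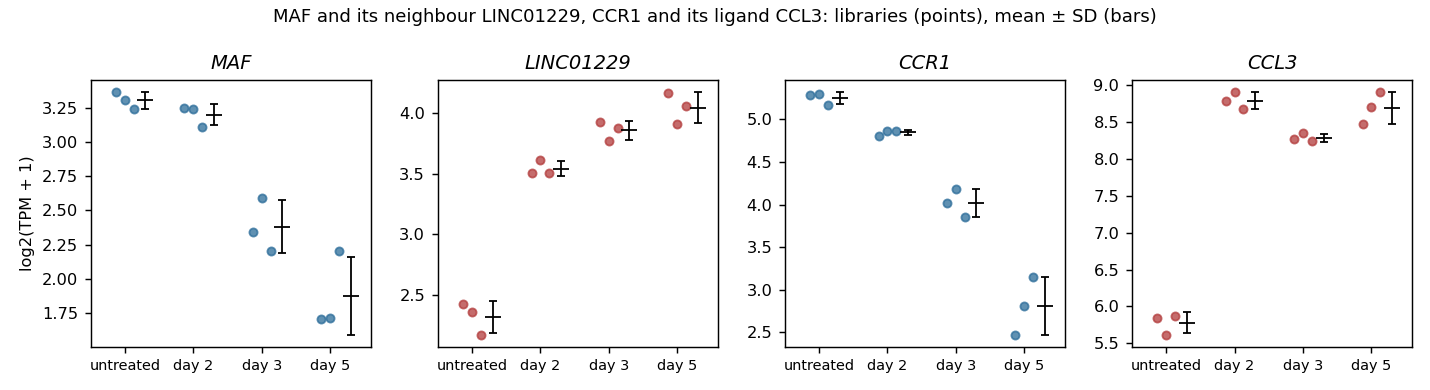
Log2(TPM + 1) of MAF and the neighbouring noncoding RNA LINC01229, and of CCR1 and its ligand CCL3, in the 3 libraries of each group (points, replicates 1 to 3 from left to right) with mean ± SD (black); each panel has its own vertical scale. MAF and CCR1 are lowest at day 5, where LINC01229 reaches 14.0 to 16.9 TPM and CCL3 355 to 478 TPM.

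As deposited, more of the 8 genes fell between days 2 and 3 than between days 3 and 5, as did more of all features. After rescaling, more of the 8 fell in the second step than in the first. Day 3 against day 2, 7 of the 8 genes fell and 0 rose by limma, beside 55.5% lower and 3.22% higher among all features, with FGFR3 at -0.45 ± 0.11 under the size threshold (-0.54 and called without day 3 replicate 2). Day 5 against day 3, 5 fell (CCR1, ITGB7, CCND1, FGFR3 and MAF) and 0 rose by limma, beside 13.1% and 0.67%. CCR1 changed by -1.21 ± 0.15 in this step, at percentile 0.226 of all features, and CCND1 by -0.90 ± 0.18, at percentile 0.98. CCND2 (-0.41), CCND3 (-0.30) and NSD2 (-0.27) were not called, though CCND2 was without day 5 replicate 3 (-0.56). The calls of FGFR3 and MAF in this step rest on single libraries. FGFR3 lost its call without day 3 replicate 2 (-0.42), day 5 replicate 1 (-0.41) or day 5 replicate 2 (-0.50), and MAF lost its call without day 3 replicate 1 (-0.52), day 3 replicate 2 (-0.40), day 5 replicate 1 (-0.42) or day 5 replicate 2 (-0.42). After rescaling, 2 fell and 0 rose by limma from day 2 to day 3 (ITGB7 and CCND1, background 13.6% lower and 14.3% higher), and 3 fell and 0 rose from day 3 to day 5 (CCR1, ITGB7 and CCND1, background 2.03% and 4.43%). Day 3 replicate 2 was the highest of its group for 8 of 8 genes and after rescaling for 7 of 8. Day 5 replicate 3 was the highest for 8 of 8 under both scalings. By the median used for rescaling, these libraries were also the highest of their groups. The log2 factors were -0.17 against -0.31 and -0.38 at day 3, and -0.44 against -0.80 and -0.69 at day 5. The same count over all features was not made.

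On the deposited scale MAF and the genes it is reported to drive kept unequal distances. Within libraries MAF was below ITGB7 by 6.62 log2 units in untreated cells, 7.28 at day 2, 6.82 at day 3 and 6.37 at day 5, and it went from 1.94 below CCR1 to 0.94 below it at day 5. Against CCND2 it moved from 0.24 below to 0.16 above. The added 1 TPM makes these distances depend on scaling, since MAF is low. After rescaling MAF and ITGB7 changed nearly alike at day 5 (-0.43 and -0.46), CCND2 by -0.83 and CCR1 by -1.31. Across the 12 libraries the features with the most similar pattern, by Pearson's r on log2(TPM + 1) among features with a mean of at least 10 TPM, were CYB5R1 (0.983), TBC1D1 and GLCCI1 for FGFR3, FNDC3B (0.995), TXNDC11 and CBX6 for NSD2, and LILRB4 (0.995) and RPL3 for ITGB7. For MAF they were RBM47 (0.997), RMDN3 and CDV3, and for CCR1 LAX1 (0.997), ME2 and OSTF1. For the cyclins they were DDX49 (0.996), SLC35C1 and HK2 with CCND1, ZDHHC5 (0.999), SLC25A3 and DDB1 with CCND2, and SRSF6 (0.997), PSMC4 and MRPL49 with CCND3. All points share the same 12 libraries and 4 groups, and these r values are descriptions. An r over 0.95 was reached by 92 features with FGFR3 and by 2536 with CCND2, so that as deposited the pattern of FGFR3 was the least common and that of CCND2 the most common of the 8. On this scale the median feature itself fell, and r was not computed after rescaling.

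Of 3 other genes reported at heavy-chain translocations in MM, 2 were tested. MYC went from 86.7 to 41.9 TPM (-1.06 ± 0.19 at day 5) and IRF4 from 192 to 93.0 TPM (-1.09 ± 0.21), both called lower at days 3 and 5 and neither called at these days after rescaling (0.14 and 0.13 at day 5). Of 9 heavy-chain constant genes, 2 passed the filter, IGHA1 at 2.17 TPM in untreated cells and 4.95 at day 5 (0.91, called) and IGHE (-0.90, called), so that the heavy-chain constant genes were all low in these cells while IGKC stood at 25260 TPM. In rescaled libraries IGHA1 was called higher at day 5 (1.83) and IGHE was not called (-0.42).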

How the data were processed

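Total RNA from 12 libraries of cells labelled MM1S (200 ng each, more than 60 M read pairs per library per the labels) was analysed from 1 table. The deposited values are log2(TPM + 1), made by the authors. The submitters' processing notes name FastQC, Trimmomatic, STAR, Salmon and hg38 without roles. TPM keeps no counts, which leaves no counting interval, and the 3 libraries of a group give the only measure of precision.

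Features with at least 1 TPM in at least 3 libraries (11939) were fitted with limma 3.58.1 (R 4.3.3), with 1 mean per group and a mean-variance trend, and p-values were two-sided and adjusted over all tested features. A fold change on this scale understates that of low genes. Libraries were rescaled by the median difference of log2(TPM + 1) from its mean over libraries, taken over features with a mean of at least 10 TPM. Shares were compared by exact permutation (SciPy 1.17.1), adjusted over 12 tests. The fit was tested on simulated data. Replicates correlated at 0.985 to 0.992 over 12 pairs. Positions are from GENCODE 29, which may differ from the annotation the authors used, and promoters from RefSeq (250 bases). Protein sequences were not used here.

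The 8 genes and all lists were chosen with earlier results of these data known. Named genes are the 8, the genes of those lists (written from general knowledge, with neighbours on 4p16.3 from the annotation), and the features most alike to each of the 8 (at most 3). Some items that this rule covers are not reported here. IGKC, IGLC1, LINC01229 and MAFTRR were added after values were seen. Alternatives were a minimum of 5 TPM or none, a pseudocount of 0.1, rescaling, leaving out the 20 most abundant features or 1 library, pairwise fits, no trend, other thresholds and shares of log2 values.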

Additional observations from a re-analysis of the deposited data

Results flagged for a closer look

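Several of the 8 genes changed between neighbouring days of NGI-1 by limma's test of the difference between the groups. Day 3 against day 2, the log2 difference was -0.757 for NSD2, -0.821 for MAF, -1.28 for ITGB7, -1.43 for CCND1, -0.995 for CCND2, -0.993 for CCND3 and -0.824 for CCR1. Day 5 against day 3, it was -0.519 for FGFR3, -0.503 for MAF, -0.958 for ITGB7, -0.898 for CCND1 and -1.21 for CCR1. The values of FGFR3 and MAF in the second step lost their call without single libraries. With 3 libraries a group, single libraries were not tested as outliers.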

How the results depend on the processing

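Rescaling to a common median turned the sign of 8 values for single genes. Against untreated these were FGFR3 (0.66 at day 3 and 0.50 at day 5), NSD2 (0.39 at day 3 and 0.47 at day 5), ITGB7 (0.14 at day 3) and MAF (0.10 at day 2), and between days FGFR3 from day 2 to day 3 (0.19) and NSD2 from day 3 to day 5 (0.086). Leaving out the 20 most abundant features turned FGFR3 at day 3 (0.049). By construction rescaling moves the median feature to about 0. The day 2 count of higher genes became 2, that of day 3 became 3 lower with 1 higher, and the others 4 lower at day 5, 2 lower from day 2 to day 3 and 3 lower from day 3 to day 5. Over all features, the lower and higher calls as deposited and after rescaling were 2774 and 960 against 1360 and 1542 at day 2, 7341 and 906 against 2887 and 2848 at day 3, 8333 and 923 against 3209 and 3281 at day 5, 6624 and 384 against 1624 and 1713 from day 2 to day 3, and 1565 and 80 against 242 and 529 from day 3 to day 5. Leaving out the 20 most abundant features gave 3 lower from day 3 to day 5 and ended the calls of FGFR3 (-0.40) and NSD2 (-0.42) at day 5 and of ITGB7 (-0.47) at day 3. A size threshold of 1 gave 0 lower and 0 higher at day 2, 2 lower from day 2 to day 3 and 1 lower from day 3 to day 5, and the adjusted p alone gave 3 lower at day 2. Leaving out 1 library at a time gave 3 to 6 genes lower from day 3 to day 5, 7 to 8 from day 2 to day 3, 6 to 7 at day 3 and 8 at day 5 in every case. With shares of summed log2(TPM + 1) in place of TPM, the day 5 differences in D-cyclin share turned sign, to 1.11 points for CCND1, -0.39 for CCND2 and -0.72 for CCND3. Of the values for single genes, 470 kept direction and call when 1 library was left out, with 7 calls lost and 3 gained, and 313 did under the other settings, with 33 lost, 5 gained and 9 turned. Where the library left out was in neither group of a comparison, the change stayed the same by construction, which raises the 470. Counts over all features also moved under other settings. A minimum of 5 TPM gave 626, 588 and 578 features higher at days 2, 3 and 5. With a size threshold of 1 there were 620 lower with 262 higher (day 2), 4296 with 329 (day 3), 408 higher (day 5), 1984 and 46 from day 2 to day 3, and 61 and 6 from day 3 to day 5. The adjusted p alone gave 1449 higher at day 2, 718 higher from day 2 to day 3, and 3163 lower and 209 higher from day 3 to day 5. Without the 20 most abundant features 619 were higher from day 2 to day 3 and 122 from day 3 to day 5. In this last step pairwise fits gave 981 lower, and leaving out day 3 replicate 2, day 5 replicate 1 or day 5 replicate 3 gave 952, 906 or 3016. No paired analysis was possible because the labels give no replicate numbers. Those used here only name the libraries, in deposited order.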
